A study of Mus musculus with 232 samples.

Results

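The genes described here are 10 imprinted genes, H19, Igf2, Cdkn1c, Dlk1, Meg3, Rian, Mirg, Peg3, Peg10 and Grb10, chosen by name from the 42493 gene rows of a single-cell RNA-seq experiment in mouse embryonic stem cells (ESCs). The experiment asked how a single miRNA alters the transcriptome of ESCs that make almost none of their own. Dgcr8-/- ESCs lack a protein needed to process most miRNAs, and they were mock-transfected (60 cells, named Dgcr8-/- below) or transfected with a mimic of miR-294 (58 cells) or of let-7 (48 cells). The WT cells (16 cells) were of the parental line V6.5 from which the knockout had been made. The sample titles call the let-7 mimic let-7i, the series design calls it let-7b, and the study's text calls it let-7c. The 3 share a seed, and the mimic is called let-7 here. Cells of every condition were grown with serum, LIF and the 2i inhibitors of MEK and GSK3. Capture came 24 h after transfection, and the study's text does not say whether the WT cells had been mock-transfected. For each condition 1 microfluidic C1 circuit was used. Chip, culture and condition therefore cannot be told apart. The authors had already removed transfected cells in which the targets of the mimic were not lowered. Cells of 1 circuit are not replicates of a treatment, so each condition is 1 sample. No difference between conditions was tested. Intervals of CPM and of ratios (counting intervals) treat reads as independent counts. The reads carried no molecular identifiers, so these intervals cover neither amplification nor the spread between cells. Intervals of shares of cells treat the cells of 1 circuit as independent draws. No interval below covers the difference between cultures or chips.

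Imprinted genes are transcribed mainly from the copy inherited from the mother or mainly from the copy inherited from the father, because methylation laid down in the germ line marks the copies differently at imprinting control regions. They lie in clusters, and many act on fetal growth. In ESCs the marks are known to be unstable in culture, and the level of an imprinted gene can differ between lines and between cells of a line. In the Dlk1-Dio3 cluster on chromosome 12, the maternal copy gives the long non-coding RNAs Meg3, Rian and Mirg, while the paternal copy gives the protein-coding genes Dlk1, Rtl1 and Dio3.

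The mimics themselves are short, and the seed (bases 2 to 8, in capitals) is the part that pairs with targets. The miR-294 sequence and the 3 let-7 sequences that the sources name are shown because these are the molecules that were added to the transfected cells. They are RefSeq sequences on the GRCm38.p6 build.
mmu-miR-294-3p: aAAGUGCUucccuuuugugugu
mmu-let-7c-5p: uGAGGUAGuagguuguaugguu
mmu-let-7b-5p: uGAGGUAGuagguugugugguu
mmu-let-7i-5p: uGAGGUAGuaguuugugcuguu

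Several of the 10 genes are annotated as hosts of miRNAs. Within their bounds and on their strand lie 22 miRNA genes, of which 14 are in Mirg, 4 in Rian, 2 in Meg3, 1 in H19 and 1 in Igf2. RefSeq held the mature sequences of 21 of these, 39 in all with 38 distinct seeds, and 0 of the 39 had the seed of a mimic. The 21 of the miRNA genes that had a row in the deposited files had 0 counts in every cell. The libraries were made from mRNA, so these counts do not measure the levels of mature miRNAs. The mature sequence, with the seed in capitals, is given for 1 miRNA of each host and for the pair in Mirg that shares a seed.
mmu-miR-675-5p, in H19: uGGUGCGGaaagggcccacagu
mmu-miR-483-3p, in Igf2: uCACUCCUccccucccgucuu
mmu-miR-770-3p, in Meg3: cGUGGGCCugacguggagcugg
mmu-miR-370-3p, in Rian: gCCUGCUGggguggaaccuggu
mmu-miR-134-5p, in Mirg: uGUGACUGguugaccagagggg
mmu-miR-453, in Mirg: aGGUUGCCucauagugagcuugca
mmu-miR-496a-5p, in Mirg: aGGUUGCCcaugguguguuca

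Complements of the mimics' seeds occurred in some of the members' own transcripts. The letters AGCACTT, complementary to bases 2 to 8 of miR-294, were searched in the longest annotated transcript, after the stop codon for coding genes and throughout for non-coding ones. They occurred at 2 places in Meg3 (14548 bases searched), 2 in Rian (8089 bases) and 1 in Peg10 (5166 bases), and in 0 places in the other members. The letters CTACCTC, complementary to the let-7 seed, occurred at 3 places in Meg3, 2 in Mirg (3822 bases) and 1 in Peg3 (3614 bases). Among all tested genes, 18.3% of 10378 coding genes (median 1227 bases searched) and 16.9% of 744 non-coding genes (median 1833.5 bases) held the miR-294 letters. For the let-7 letters these shares were 11% and 12.8%. The stretches searched in Meg3 and Rian are longer than those medians. A miR-294 match in Meg3 (chr12:109566220-109566242) is also followed by an A and is not shown. The matches in Rian and the 2 let-7 matches in Meg3 that are followed by an A are given here, on the plus strand of GRCm38, with the complement of the seed in capitals.
Rian, miR-294, chr12:109648287-109648309: tcctagcaAGCACTTatttcttt
Rian, miR-294, chr12:109653195-109653217: ttctattcAGCACTTacttgccc
Meg3, let-7, chr12:109568422-109568444: tggcaagcCTACCTCacagggtt
Meg3, let-7, chr12:109571621-109571643: tcaggttcCTACCTCacagggct

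Some cells had been sequenced in 2 runs, 232 runs in all, and for such a cell the expected counts were added up. Totals per cell ranged from 513521 to 3979274 counts, with condition medians between 1307481 and 1574732. Levels are given as CPM (counts scaled to a common library total), either per cell or, for a condition, from the counts summed over its cells. In 48 of the 50 cells with 2 runs, the runs differed by a chi-square per gene of 1.26 to 6.73, where 1 is sampling noise. In 1 WT cell and 1 let-7-transfected cell the value was 201 and 111, as large as between different cells. Another 4 pairs of cells (3 let-7-transfected, 1 miR-294-transfected) were as close to each other as runs of a cell (1.90 to 5.89, next pair 39.8). Beside the WT values that moved, the value without the WT cell whose runs differed is also given. Dgcr8 itself, the deleted gene, had a summed level of 118 CPM in WT cells against 35.2 CPM in Dgcr8-/-, 45.3 CPM in miR-294-transfected and 30.7 CPM in let-7-transfected cells. A single WT cell held 52.5% of the WT counts, and without the highest cell of each condition the levels were 64.4, 26.9, 42.9 and 24.7 CPM in that order. Counts for the whole gene do not show which exons were read. Over all genes with a mean of at least 5 counts, the median share of WT counts in the highest cell was 37.4%. In the other conditions that median was 14.5% to 18.1%. Of 8 pluripotency markers, each had counts in every condition. Their summed level per cell had a median of 2672 CPM in WT, 2932 CPM in Dgcr8-/-, 3833 CPM in miR-294-transfected and 1520 CPM in let-7-transfected cells. After let-7, 1 of the 8 was over 2-fold lower (Nanog, log2 ratio -1.72) and 0 were higher. After miR-294, 1 was higher (Utf1, 1.40) and 0 were lower. Over all genes 10.5% were lower and 17.2% higher after let-7, and 8.4% higher and 15.3% lower after miR-294. The 10 fibroblast markers, which would mark feeder cells, reached at most 38.4 CPM in any cell, and Col1a2, Col3a1, Col6a1, Lum and Postn were at 0 throughout. Of 8 primitive endoderm markers, Gata6, Sox17 and Afp were at 0 in every condition, and 1, Gata4, passed the filter on low counts. Gata4 was counted in 0 WT, 1 Dgcr8-/-, 5 miR-294-transfected and 7 let-7-transfected cells, with log2 ratios to Dgcr8-/- of 1.07 after miR-294 and 2.55 after let-7. It reached the filter only through the let-7-transfected cells (mean of 4.16 counts without them). The 7 trophoblast markers had a median summed level of 62.4 CPM in WT and 16.2 CPM in Dgcr8-/- cells. After miR-294 it was 13.5 CPM and after let-7 26.7 CPM. Of the 4 that passed the filter, 1 was over 2-fold higher (Tfap2c) and 2 lower (Eomes and Elf5) in Dgcr8-/- over WT cells. Over all genes 28.2% were higher and 12.8% lower. The 5 early mesoderm markers had a median of 0 CPM in each condition. Only Mixl1 passed, with a log2 ratio of -1.69 after miR-294. The part of these markers in the results was not tested.

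The 10 genes differed widely in abundance. Over the 4 conditions, Meg3 was counted in 162 cells, Rian in 165, Grb10 in 115, Peg3 in 98 and Mirg in 91. Peg10 was counted in 24 cells, Cdkn1c in 20, Igf2 in 5, Dlk1 in 1 and H19 in 0. The comparisons across genes took the 11186 genes whose mean over all cells reached 5 counts, and 6 of the 10 were among them, namely Cdkn1c, Meg3, Rian, Mirg, Peg3 and Grb10. On the length-normalized scale (mean FPKM over the 60 Dgcr8-/- cells), Rian was the most abundant at 167, followed by Meg3 at 40.4, Mirg at 8.06, Peg3 at 6.32, Cdkn1c at 4.49 and Grb10 at 4.31. The place of Cdkn1c above Grb10 rests on 1 cell, at 258 FPKM. Cdkn1c was counted in 4 of these 60 cells, with a median of 0, and Grb10 in 34. A typical cell had counts of 4 of the 10 genes in each condition, with a range from 0 to 7. Meg3, Rian and Mirg together took 66.7% of the counts of the 10 genes in WT cells, 87.7% in Dgcr8-/-, 69% in miR-294-transfected and 92.1% in let-7-transfected cells.

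**Figure D1:**
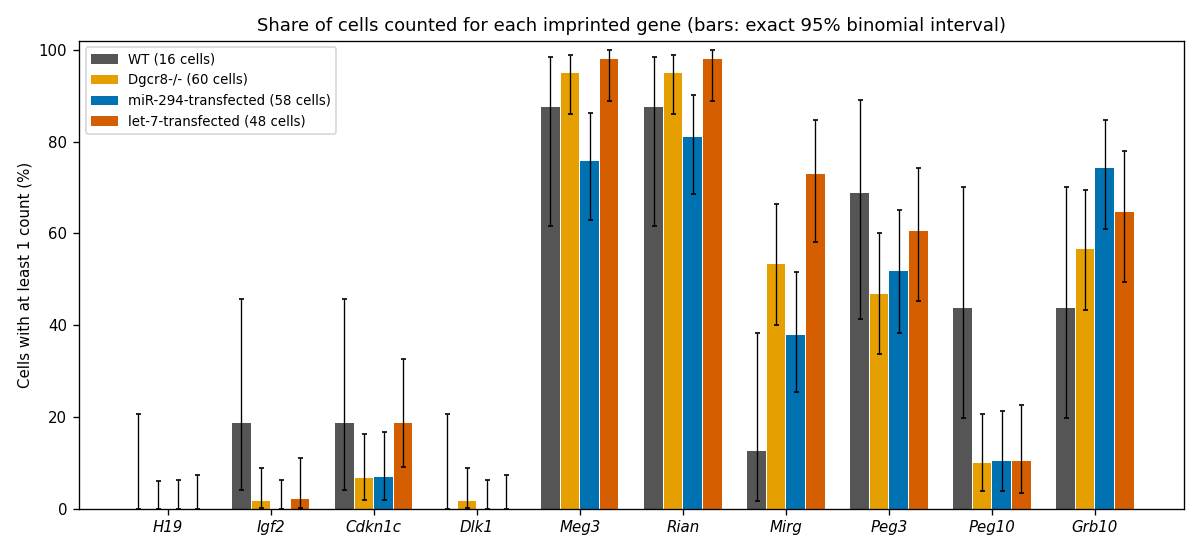
Share of cells with at least 1 count (y axis, percent) of each of the 10 imprinted genes (x axis) in WT, Dgcr8-/-, miR-294-transfected and let-7-transfected cells; black bars are exact 95% binomial intervals over the cells. Meg3 and Rian were counted in 75.9% to 97.9% of cells, Mirg in 12.5% of WT and 72.9% of let-7-transfected cells, and H19 in none.

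Meg3 (ENSMUSG00000021268, chr12:109541001-109571726, plus strand), a maternally expressed non-coding RNA, was lowest after miR-294 and highest after let-7. Its summed level was 59 CPM (95% interval 56 to 62.1) in WT, 122 CPM (120 to 124) in Dgcr8-/-, 29.9 CPM (28.9 to 31.02) in miR-294-transfected and 419 CPM (414 to 423) in let-7-transfected cells. Over single cells the lowest value was 0 CPM in each condition. The median was 19.4 CPM in WT, 50.8 CPM in Dgcr8-/-, 7.95 CPM in miR-294-transfected and 224 CPM in let-7-transfected cells. The highest cell of each condition, in the same order, had 219 CPM, 1169 CPM, 224 CPM and 2162 CPM. The cells of the conditions overlapped, but 42 of 48 let-7-transfected cells and 10 of 58 miR-294-transfected cells lay above the Dgcr8-/- median. Against Dgcr8-/-, the summed level was 4.08-fold lower after miR-294 (log2 ratio -2.03, counting interval -2.09 to -1.97) and 3.43-fold higher after let-7 (1.78, 1.75 to 1.81). Dgcr8-/- cells were 2.07-fold above WT (log2 ratio 1.05, 0.97 to 1.13), and without the WT cell whose runs differed the log2 ratio was 1.505.

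The annotated RefSeq promoter of Meg3 (GRCm38.p6, chr12:109540746-109541045, plus strand, 250 bases before and 50 after the start) is shown because Meg3 lies first in the stretch of non-coding RNAs described here, and the window at the annotated start of Rian (chr12:109603695-109603994, plus strand) is set beside it. TATAAA and TGACGTCA (the cAMP response element), searched on both strands, are in capitals, and the TATAAA matches of the strands overlap.
Meg3 promoter: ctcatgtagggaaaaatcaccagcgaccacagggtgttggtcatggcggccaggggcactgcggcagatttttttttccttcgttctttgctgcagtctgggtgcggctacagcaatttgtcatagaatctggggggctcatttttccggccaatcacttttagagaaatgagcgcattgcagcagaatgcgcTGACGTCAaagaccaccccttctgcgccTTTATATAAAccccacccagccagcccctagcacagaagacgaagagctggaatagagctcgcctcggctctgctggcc
Rian promoter: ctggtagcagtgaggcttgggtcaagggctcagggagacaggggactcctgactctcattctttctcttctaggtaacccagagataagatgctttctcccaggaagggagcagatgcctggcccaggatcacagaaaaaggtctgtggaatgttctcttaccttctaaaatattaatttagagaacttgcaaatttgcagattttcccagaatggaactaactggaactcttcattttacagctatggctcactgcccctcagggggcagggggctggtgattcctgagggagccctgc

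TGACGTCA began 57 bases before the Meg3 start and was found in 1.79% of the 32851 RefSeq promoters of the same length, while TATAAA was found in 13.6%. The Meg3 window held 13 CpG, against a median of 7 over all promoters. The Rian window held 0 CpG and no match of either motif, and a further Meg3 entry, inside the gene, held 1 CpG and no match. Among the 7 members with a promoter entry, TGACGTCA was also found in that of Peg3, 178 bases before its start. TGCCGC, the letters bound by the imprint-maintaining factor ZFP57 when methylated, was found in 11.6% of promoters and in 1 entry each of Meg3, Grb10 and Igf2.

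Rian (ENSMUSG00000097451, chr12:109603940-109661716, plus strand), which carries 13 snoRNA genes and 4 miRNA genes within its bounds, was likewise highest after let-7 and lower after miR-294 than in Dgcr8-/- cells. Its summed level was 155 CPM (150 to 160) in WT, 424 CPM (420 to 428) in Dgcr8-/-, 104 CPM (102.1 to 106) in miR-294-transfected and 919 CPM (913 to 926) in let-7-transfected cells. The cell medians were 29.1, 235, 21.8 and 668 CPM in that order, and the highest cells had 576, 1957, 1075 and 4235 CPM, with 0 CPM in the lowest cell of each condition. Of the let-7-transfected cells, 34 of 48 lay above the Dgcr8-/- median, against 11 of 58 miR-294-transfected cells. The level was 4.07-fold lower after miR-294 (log2 ratio -2.03, -2.06 to -1.996) and 2.17-fold higher after let-7 (1.12, 1.10 to 1.13). From the deposited FPKM the let-7 ratio was 0.92, under 2-fold. Dgcr8-/- cells were 2.74-fold above WT (1.46, 1.41 to 1.505). The WT value leans on 1 cell, the one whose runs differed, which held 44.6% of the WT counts of Rian. Without it the WT level was 97.3 CPM, below the miR-294-transfected level, and the log2 ratio was 2.12.

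Mirg (ENSMUSG00000097391, chr12:109729764-109749460, plus strand), the host of the distal miRNA cluster, was the least abundant of the 3 non-coding RNAs. It had 3 counts in all in WT cells (0.12 CPM, 0.03 to 0.36), from 2 cells, against 10.3 CPM (9.70 to 10.9) in Dgcr8-/- cells. The summed level was 3.35 CPM (3.01 to 3.73) after miR-294 and 29.8 CPM (28.6 to 31.01) after let-7. It was counted in 32 of 60 Dgcr8-/- cells (53.3%, exact binomial interval 39.997% to 66.3%), 22 of 58 miR-294-transfected cells (37.9%, 25.5% to 51.6%) and 35 of 48 let-7-transfected cells (72.9%, 58.2% to 84.7%). The highest cell had 1.25 CPM in WT, 108 CPM in Dgcr8-/-, 53.4 CPM after miR-294 and 175 CPM after let-7. Its level was 3.07-fold lower after miR-294 (log2 ratio -1.62, -1.80 to -1.44) and 2.89-fold higher after let-7 (1.53, 1.43 to 1.64). The ratio of Dgcr8-/- to WT was 84-fold, but on 3 WT counts its log2 interval runs from 4.84 to 8.67. When each cell was thinned to 500000 counts, Mirg was counted in 6.25% of WT, 46.7% of Dgcr8-/-, 34.5% of miR-294-transfected and 64.6% of let-7-transfected cells.

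**Figure D2:**
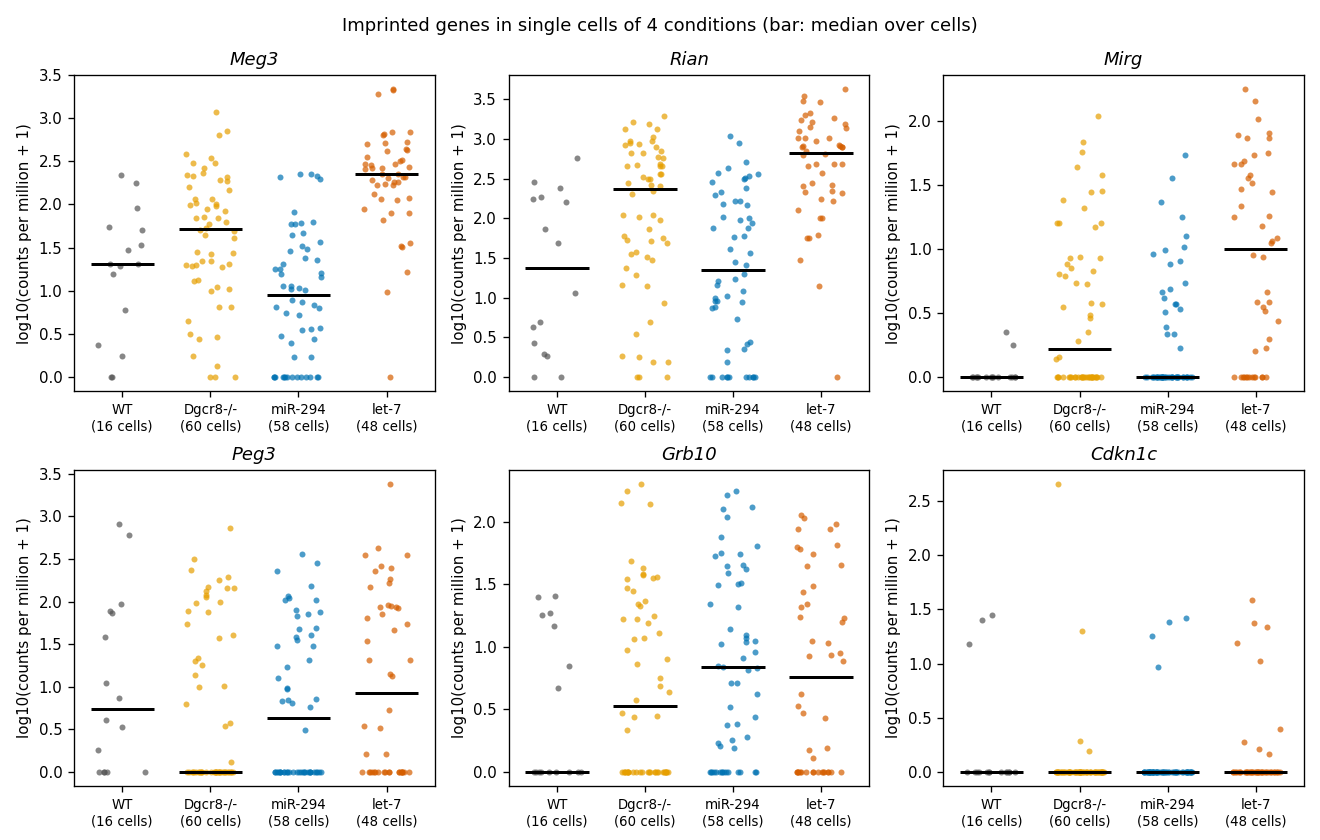
Each point is a cell; the y axis is log10(CPM + 1) and the black bar the median over the cells of WT, Dgcr8-/-, miR-294-transfected and let-7-transfected cells, for 6 genes. The medians of Meg3 and Rian are highest after let-7 (224 and 668 CPM) and lowest or near lowest after miR-294 (7.95 and 21.8 CPM), with wide overlap between conditions, while Cdkn1c is at 0 in most cells.

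Counts of Meg3, Rian and Mirg were found together in many cells. All 3 were counted in 35 of 48 let-7-transfected, 31 of 60 Dgcr8-/-, 21 of 58 miR-294-transfected and 2 of 16 WT cells. None was counted in 7 miR-294-transfected cells and in 1 cell of each other condition. The summed level of the 3 RNAs in a cell had a median of 56.5 CPM in WT, 298 CPM in Dgcr8-/-, 45.9 CPM in miR-294-transfected and 1008 CPM in let-7-transfected cells. Across cells, described without a test, the Spearman correlation of Meg3 with Rian was 0.54 over 60 Dgcr8-/- cells, 0.54 over 58 miR-294-transfected cells, 0.74 over 48 let-7-transfected cells and 0.65 over 16 WT cells. The cells of a condition share a chip, and the correlation of Meg3 with the total count of the cell was -0.09 in Dgcr8-/- cells and 0.02 in let-7-transfected cells.

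**Figure D3:**
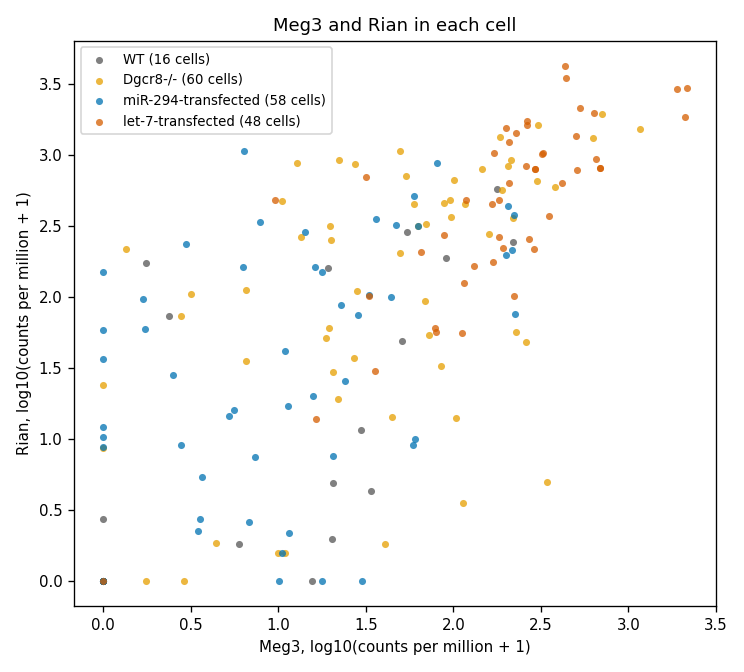
Each point is a cell, with Meg3 on the x axis and Rian on the y axis, both as log10(CPM + 1). Cells of the 4 conditions lie along a common diagonal (Spearman correlation from 0.54 to 0.74 within a condition), with let-7-transfected cells mostly at its upper end.

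Of these 11186 genes, those most alike to Rian over the 60 Dgcr8-/- cells were B830012L14Rik (Spearman correlation 0.73) and Gm37899 (0.65), both annotated on the same strand between Rian and Mirg, followed by Meg3 (0.54). For Meg3 they were Rian (0.54), Osbpl3 on chromosome 6 (0.51), which was counted in 16 of the 60 cells, and Gm37899 (0.49). The genes most alike to Mirg and Grb10 lay on other chromosomes or elsewhere on the same one, with correlations of 0.48 to 0.51. Such values in sparse counts are no finding.

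Other tested genes of the region were also higher after let-7 than in Dgcr8-/- cells, while after miR-294 they were lower or, for Gm26945, nearly level. The place of WT in the order differed between them, since Rtl1, Gm26945 and Mirg were lowest in WT cells. B830012L14Rik (chr12:109695586-109702587) had 59.3 CPM in WT, 198 CPM in Dgcr8-/-, 41.5 CPM after miR-294 and 506 CPM after let-7. Gm37899 (chr12:109668869-109677585) had 65.8, 91.5, 34.03 and 223 CPM in that order. Rtl1, a retrotransposon-derived placental gene of the paternal copy, is read from the opposite strand and had 3.23, 19.1, 4.62 and 35.8 CPM. Its ratio to Dgcr8-/- was -2.05 on the log2 scale after miR-294 and 0.91 after let-7. Gm26945, within the bounds of Rian, was within 2-fold after miR-294 (log2 ratio -0.08) and higher after let-7 (1.37). Nextera XT libraries and RSEM with its standard settings, as named in the study's methods, do not keep strand, so reads of overlapping genes on opposite strands cannot be told apart. Dlk1 (chr12:109452823-109463336), which encodes a Notch-family ligand of the paternal copy, had 1 count, in 1 Dgcr8-/- cell. In let-7-transfected cells it was counted in 0 of 48 cells, which allows a share of up to 6.25%. No ratio can be given for it.

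**Figure D4:**
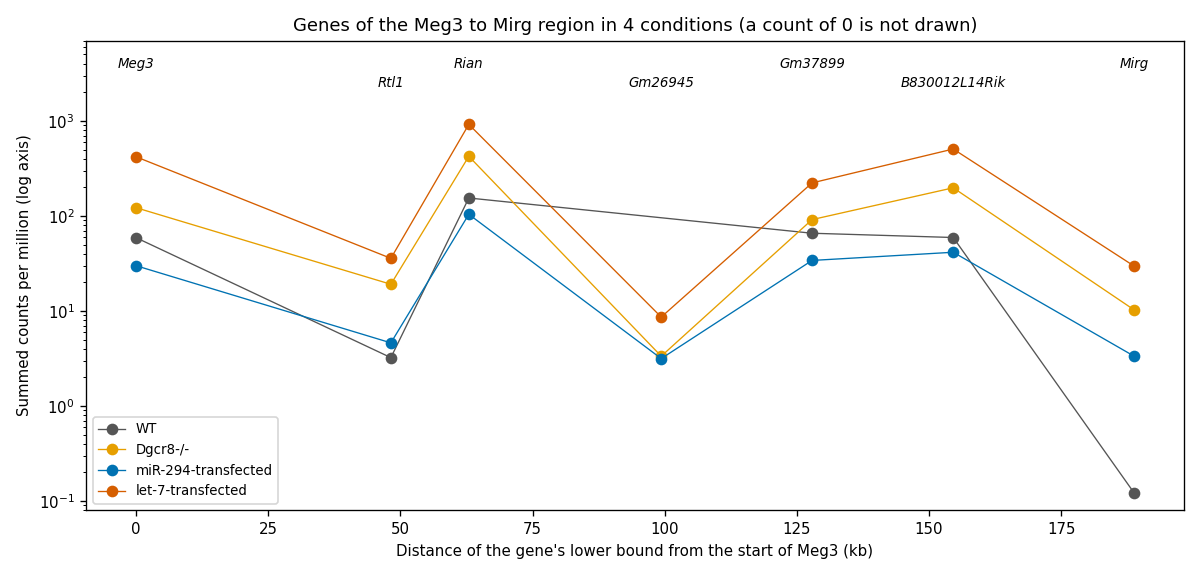
Summed CPM (y axis, log axis) of 7 genes of the Meg3 to Mirg region against the distance of each gene's lower bound from the start of Meg3 (x axis, kb), with a line joining the values of a condition. The let-7-transfected values lie above the Dgcr8-/- values at all 7 genes, and the miR-294-transfected values lie below them; Gm26945, at 3.35 and 3.16 CPM, differs least, and its WT count of 0 is not drawn.

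H19 and Igf2 lie beside each other on chromosome 7 and share an imprinting control region bound by CTCF. H19 (ENSMUSG00000000031, chr7:142575529-142578143), a maternally expressed non-coding RNA that is abundant in the embryo, had 0 counts in every cell. A count of 0 allows up to 0.12 CPM in WT and up to 0.03 CPM in Dgcr8-/- cells. Igf2 (ENSMUSG00000048583, chr7:142650766-142666816), the paternally expressed insulin-like growth factor, had 35 counts in 3 of 16 WT cells (1.43 CPM, 1.00 to 1.99). It had 17 counts in 1 Dgcr8-/- cell (0.16 CPM), 0 counts in 58 miR-294-transfected cells and 2 counts in 1 let-7-transfected cell. The ratio of Dgcr8-/- to WT was 8.81-fold lower (log2 ratio -3.14, -4.07 to -2.26), and at 4 cells in all the value rests on very few cells.

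Cdkn1c (ENSMUSG00000037664, chr7:143458339-143461050), a maternally expressed inhibitor of cyclin-dependent kinases that slows the cell cycle, was rare. It was counted in 3 of 16 WT, 4 of 60 Dgcr8-/-, 4 of 58 miR-294-transfected and 9 of 48 let-7-transfected cells. Summed levels were 2.66 CPM in WT, 7.22 CPM in Dgcr8-/-, 1.91 CPM in miR-294-transfected and 2.32 CPM in let-7-transfected cells. A single Dgcr8-/- cell, at 455 CPM, held 96.2% of the Dgcr8-/- counts. The log2 ratios of -1.92 after miR-294, -1.64 after let-7 and 1.44 for Dgcr8-/- over WT therefore rest on that cell. Cdkn1c also reached the filter only through it, with a mean of 2.59 counts over the other cells, so its place among the genes past 2-fold follows from the filter. Without the highest cell of each condition the Dgcr8-/- level was 0.28 CPM, and the ratios turned to 2.07, 2.49 and -2.92.

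Grb10 (ENSMUSG00000020176, chr11:11930508-12038683, minus strand) encodes an adaptor that restrains insulin and IGF receptor signalling. Its summed level was 6.62 CPM (5.64 to 7.73) in WT, 19.2 CPM (18.37 to 20.1) in Dgcr8-/-, 26.4 CPM (25.5 to 27.5) in miR-294-transfected and 18.5 CPM (17.5 to 19.5) in let-7-transfected cells. The cell medians were 0, 2.36, 5.84 and 4.96 CPM. It was 2.90-fold higher in Dgcr8-/- than in WT cells (log2 ratio 1.54, 1.30 to 1.78), though as deposited FPKM the ratio was 0.51, and without the WT cell whose runs differed it was 1.88. Between the transfected and the Dgcr8-/- cells it was within 2-fold (log2 ratio 0.46 after miR-294 and -0.05 after let-7). The let-7 value took either sign across the alternatives, from -0.27 to 0.97. It was counted in 43 of 58 miR-294-transfected cells (74.1%, 60.96% to 84.7%) and 34 of 60 Dgcr8-/- cells (56.7%, 43.2% to 69.4%), and after thinning in 60.3% and 55%.

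Peg3 (ENSMUSG00000002265, chr7:6703892-6730431, minus strand), a paternally expressed zinc finger gene, was on in some cells and at 0 in others in every condition. It was counted in 11 of 16 WT, 28 of 60 Dgcr8-/-, 30 of 58 miR-294-transfected and 29 of 48 let-7-transfected cells. Summed levels were 85, 49.7, 32.3 and 96.5 CPM, and the highest single cells had 805, 739, 360 and 2406 CPM. The log2 ratio to Dgcr8-/- was -0.62 after miR-294 (-0.69 to -0.56) and 0.96 after let-7 (0.91 to 1.01), and Dgcr8-/- over WT was -0.77 (-0.85 to -0.70). A single WT cell held 45.3% of the WT counts, and without the highest cell of each condition the WT level was 48.8 CPM and that ratio -0.17. Without the WT cell whose runs differed it was -0.95. The let-7 value depends on 1 cell with 36.4% of the counts, since without the highest cell of each condition it was 0.53, and with median-of-ratios size factors it was 1.33. The cell medians were 4.69, 0, 3.45 and 8.26 CPM in the same order.

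Peg10 (ENSMUSG00000092035, chr6:4747306-4760517, plus strand), a paternally expressed gene of retrotransposon origin that is needed in the placenta, did not pass the filter. Its summed level was 11.2 CPM in WT, from 7 of 16 cells, against 1.76 CPM in Dgcr8-/-, 1.17 CPM in miR-294-transfected and 0.76 CPM in let-7-transfected cells, each from 5 or 6 cells. The log2 ratio of Dgcr8-/- to WT was -2.67 (-2.94 to -2.39). The WT cell whose runs differed held 65.2% of the WT counts, and without it the WT level was 4.41 CPM and the log2 ratio -1.33. Peg10 was counted in 43.8% of WT cells (19.8% to 70.1%) and in 6 of 60 Dgcr8-/- cells (3.76% to 20.5%).

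Set beside all genes, the 6 tested members stood as follows, where a gene is counted when its summed CPM differed by more than 2-fold. After miR-294, 4 of the 6 were lower (Cdkn1c, Meg3, Rian and Mirg), against a background of 15.3% of all 11186 genes, and 0 were higher, against 8.4%. After let-7, 3 were higher (Meg3, Rian and Mirg), against 17.2%, and 1 was lower (Cdkn1c), against 10.5%. In Dgcr8-/- over WT cells, 5 were higher (all but Peg3), against 28.2%, and 0 were lower, against 12.8%. The median log2 ratio of the 6 was -1.77 after miR-294, 1.04 after let-7 and 1.45 for Dgcr8-/- over WT, where the median of all genes was -0.06, 0.11 and 0.18. Median-of-ratios size factors moved the all-gene medians to -0.28, 0.18 and 0.37. After miR-294, 940 of all genes were over 2-fold higher and 1709 lower, and with size factors these were 647 and 2282. Meg3, Rian and Mirg are neighbours and not independent, and the comparisons share the Dgcr8-/- cells. Cdkn1c enters these counts and medians only through 1 cell. The other 5 genes give 3 lower after miR-294, 3 higher and 0 lower after let-7, and 4 higher in Dgcr8-/- over WT cells.

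**Figure D5:**
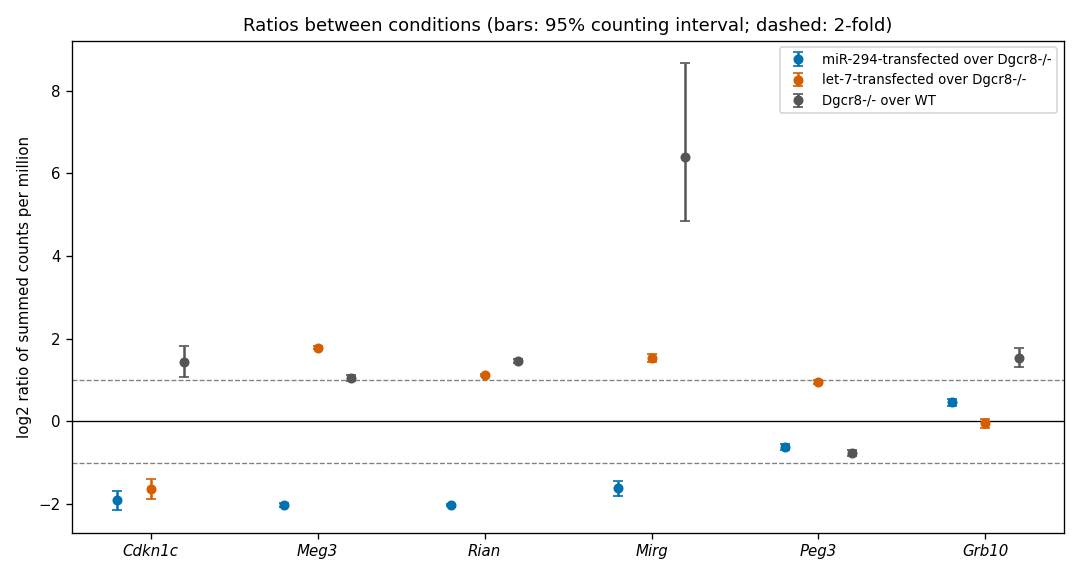
Log2 ratio of summed CPM (y axis) of the 6 tested imprinted genes for miR-294-transfected over Dgcr8-/-, let-7-transfected over Dgcr8-/- and Dgcr8-/- over WT cells; bars are 95% counting intervals and dashed lines mark 2-fold. Meg3, Rian and Mirg lie below -1 after miR-294 and above 1 after let-7, and the Mirg ratio of Dgcr8-/- over WT (6.39) rests on 3 WT counts.

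A wider list of imprinted genes was mixed in direction, and most of its tested members lay within 2-fold. Over all genes 8.4% were higher and 15.3% lower after miR-294, 17.2% higher and 10.5% lower after let-7, and 28.2% higher and 12.8% lower in Dgcr8-/- over WT cells, with medians of -0.06, 0.11 and 0.18. Of 12 tested genes expressed from the maternal copy, 0 were over 2-fold higher and 2 lower after miR-294 (Klf14, log2 ratio -3.58, and Ppp1r9a, -1.23), and 0 higher and 1 lower after let-7 (Blcap, -1.66), with medians of -0.31 and 0.59. Of 16 tested genes expressed from the paternal copy, 2 were higher after miR-294 (Ndn, 2.46, and Sfmbt2, 1.07) and 2 lower (Rtl1, -2.05, and Inpp5f, -1.16). After let-7, 3 were higher (Ndn, 2.30, Zrsr1, 1.85, and Snrpn, 1.07) and 1 lower (Inpp5f, -1.08). The medians of the paternal list were 0.05 and 0.14. In Dgcr8-/- over WT cells, 4 maternal genes were higher and 1 lower (Phlda2, a brake on placental growth, -2.77). Of the paternal genes, 2 were higher and 1 lower (Slc38a4, an amino acid transporter, -2.41). The Phlda2 ratio leans on 1 WT cell, without which its mean over all cells fell from 7.98 to 5.55 counts. Klf14 was counted in at most 5 cells of a condition and reached the filter only through the Dgcr8-/- cells (mean of 3.14 counts without them). Without 1 Dgcr8-/- cell alone, the mean count of Klf14 was 2.72. Its low ratio after miR-294 therefore follows from the filter. So does its place among the 4 maternal genes higher in Dgcr8-/- over WT cells (log2 ratio 3.01).

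Among 16 genes that write or keep imprints, 1 was over 2-fold higher after miR-294 (Zfp445, 1.53) and 1 lower after let-7 (Setdb1, a histone methyltransferase, -1.26), where 8.4% of all genes were higher after miR-294 and 10.5% lower after let-7. Zfp57, which recruits TRIM28 to protect imprints, had 426 CPM in WT, 835 CPM in Dgcr8-/-, 589 CPM in miR-294-transfected and 1026 CPM in let-7-transfected cells. Dnmt1, the maintenance methyltransferase, had 134 to 151 CPM in the 4 conditions. In Dgcr8-/- over WT cells 4 of the 16 were lower and 0 higher, against 12.8% and 28.2% of all genes, and Dnmt3b (-2.24) and Zfp445 (-1.38) had the lowest ratios. Dppa3 (-1.29), also among the 4, was counted in 2 WT cells. Its mean of 5.15 counts fell under the filter without the WT cells (4.62) and also without 1 Dgcr8-/- cell (3.73). The ratio of Dppa3 therefore rests on few cells.

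Igf2 acts through the IGF pathway, and 12 of 15 listed genes of it were tested. After miR-294, 0 of the 12 were past 2-fold. After let-7, 4 were higher, among them the insulin receptor Insr (log2 ratio 3.27), Igfbp3 (3.05) and the adaptor Irs2 (1.87). Another 3 were lower after let-7, the mRNA-binding proteins Igf2bp2 (-2.92), Igf2bp3 (-1.16) and Igf2bp1 (-1.06). Over all genes 17.2% were higher and 10.5% lower after let-7. Insr and Igfbp3 reached the filter only through the let-7-transfected cells (means of 3.55 and 2.49 counts without them), so their high ratios follow from the filter. Igf1r, the receptor for Igf2, was higher by 1.67, and Igf2r, itself imprinted and the receptor that clears Igf2, had a ratio of 0.89. In Dgcr8-/- over WT cells, 3 of the 12 were higher (Irs2, Igfbp3 and Igf2bp2), with 0 counts of Irs2 and Igfbp3 in WT cells, and 1 was lower (Insr, -3.64), against 28.2% and 12.8% of all genes.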

How the data were processed

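The authors aligned the reads of each run to Gencode M4 transcripts with RSEM 1.2.19 and deposited per gene an expected count, not normalized, and an FPKM, normalized for length and depth. They had removed shallow or low-diversity cells and transfected cells without lowered targets. Runs of the same cell were added and rounded to whole counts. Row IDs were matched to symbols for 98.1% of rows. CPM is the count divided by the total count of the cell or condition. Each condition is 1 sample, so ratios of summed CPM carry exact Poisson or binomial 95% intervals and no p-value. A gene was compared where its mean over all cells reached 5 counts, and past 2-fold was called. A count of 0 was set to 3 counts in a ratio, as a bound. Shares of cells were also taken after thinning. FPKM was used to compare genes and as an alternative. FPKM of a cell with 2 runs was weighted by the runs' totals. Gene positions and searched transcripts are from Gencode M21, and miRNA and promoter sequences from RefSeq, both GRCm38. The ratio step was tested on simulated data. Members and lists were chosen with earlier results of these data known. The text names the 10 members and, from the wider lists, at most 3 genes past 2-fold in each direction per comparison, by size; Zfp57, Dnmt1, Igf1r and Igf2r were named after their values were seen. Python 3.11.15, numpy 2.4.6, scipy 1.17.1 and pandas 2.3.3 were used. Alternatives are given in the closing section.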

Additional observations from a re-analysis of the deposited data

How the results depend on the processing

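No paired analysis was possible because the replicate numbers only order the cells of a condition and tie no cell to a cell of another. Over 12 alternatives, 54 of 68 counts of members past 2-fold stayed within 1.5 times the main count. With a limit of 4-fold, 2 members were lower after miR-294, 0 higher and 0 lower after let-7, and 1 higher in Dgcr8-/- over WT cells. With a limit of 1.5-fold, 1 (Peg3) was lower in Dgcr8-/- over WT cells, as with the first run of each cell (1), the mean of the cells' CPM (1) and the deposited FPKM (1); FPKM also gave 3 higher there. With no filter on low counts, 3 members were lower after let-7 and 2 in Dgcr8-/- over WT cells, since Igf2 and Peg10 then entered. After let-7, Peg3 joined the higher members, 4 in all, with size factors, the mean of the cells' CPM, the first run or the 1.5-fold limit. With the deposited FPKM the 3 higher members after let-7 were Meg3, Mirg and Peg3, without Rian. Without the highest cell of each condition, 1 (Cdkn1c) was higher after miR-294, 0 were lower after let-7 and 1 (Cdkn1c) was lower in Dgcr8-/- over WT cells. The log2 ratios of Cdkn1c then reversed, to 2.07, 2.49 and -2.92. Leaving out the cells whose runs differ, alone or with near-identical cells counted once, was chosen after seeing the data. Alone, it changed none of the members' counts past 2-fold in the 3 comparisons. With near-identical cells also counted once, 4 members were higher after let-7 instead of 3, since Peg3 then entered (log2 ratio 1.004). The log2 ratios of Meg3 ranged from -2.15 to -1.83 after miR-294 and from 1.59 to 1.801 after let-7, those of Mirg from -1.74 to -1.33 and from 1.33 to 1.59, and those of Rian from -2.13 to -1.60 and from 0.92 (deposited FPKM) to 1.34. Low counts limit H19, Dlk1, Igf2, Peg10, Cdkn1c and, in WT cells, Mirg. Among all genes, higher and lower counts past 2-fold without the filter (23587 genes) were 3593 and 4464 after miR-294 against 940 and 1709, 5585 and 3337 after let-7 against 1926 and 1174, and 5693 and 3220 in Dgcr8-/- over WT against 3156 and 1434. With 4-fold they were 249 and 521, 635 and 331, and 1771 and 389, and with 1.5-fold 1983 and 2962, 3207 and 2110, and, for the lower genes of the last, 2580. Without the highest cells 4464 genes (39.9%) were higher and 866 lower in Dgcr8-/- over WT.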

Other observations

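A few more imprinted-region transcripts are given as values, chosen after they were seen; the first pair lay below the filter on low counts. Dio3, which encodes a thyroid hormone deiodinase at the far end of the Dlk1-Dio3 cluster, had summed levels of 2.37 CPM in WT, 4.11 CPM in Dgcr8-/-, 0.03 CPM in miR-294-transfected and 1.26 CPM in let-7-transfected cells, from 1, 3, 1 and 3 cells. Gm26906, annotated antisense to the end of Meg3, had 0, 4, 24 and 152 counts in the same order of conditions, the last from 3 cells. Kcnq1ot1, the paternally expressed non-coding RNA of the cluster that holds Cdkn1c, was counted in every cell, at 334, 310, 242 and 310 CPM.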
